A study of Rattus norvegicus with 6 samples.

Results

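Distal accessible sites (ACS) of rat pancreatic islets lay unevenly along the genome, and 6032 of 80543 distal ACS fell into 480 dense clusters. The class of each ACS was taken from the deposited table, where distal means more than about 10 kb from the nearest gene start. Distinct distal ACS were sorted along each chromosome and chained while the gap from the end of a site to the start of the next was at most 12.5 kb, and chains of at least 8 ACS were kept. Chromatin accessibility was measured by ATAC-seq, in which the Tn5 transposase cuts and tags open DNA, in dissociated islet cells of Sprague-Dawley rats, with 3 libraries from adult males (Adult 4, 5 and 6, 1 rat each) and 3 from pups at postnatal day 10 (P10 1, 2 and 3, a mix of male and female pups of 1 litter each). The table held 101603 distinct ACS, each with its count of Tn5 integrations in the 6 libraries, which summed to between 7916919 (Adult 6) and 21168463 (P10 1) integrations per library. Levels are CPM, the counts relative to the integrations in ACS of a library, scaled with TMM factors that even out the typical ACS between libraries, and they stand in the order Adult 4, 5 and 6 and P10 1, 2 and 3. Age, sex and the use of a single rat or a pooled litter changed together between the groups and cannot be told apart. A change in the share of a cell type among islet cells and a change in accessibility per cell cannot be told apart either. At the promoters of 13 islet endocrine marker genes the summed level was 272 to 365 CPM in adults and 336 to 497 CPM in pups, against 19.3 to 27.7 and 25.4 to 30.4 CPM at 4 acinar, 58.5 to 67.4 and 85.7 to 90.3 CPM at 6 duct, 23.5 to 31.7 and 28.9 to 35.5 CPM at 2 endothelial and 30.5 to 36.7 and 34.3 to 40.7 CPM at 7 mesenchymal promoter ACS, and no promoter ACS was listed for the immune markers. The duct markers were higher in every P10 library, and their part in the results was not tested.

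Distal accessible sites are often enhancers, short stretches of DNA where transcription factors bind and from which they act on a promoter that can lie far away along the chromosome. Enhancers of genes that define a cell type tend to sit close together, and such groups are known as stretch enhancers or super-enhancers and are common near islet genes. Accessible sites also crowd together where a repeated sequence or a multiplied gene family lets reads pile up, so that a dense cluster of sites can be either kind of region. Here a cluster is named by the gene closest to most of its members, which does not show that it acts on that gene.

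The clusters held 8 to 85 members, with a median of 9, and 160 of them had exactly 8. They spanned 5645 to 232192 bp, with a median of 44327.5 bp. The median distance from a cluster to the closer end of its nearest gene was 77877 bp, and it was above 100 kb for 216 clusters. This distance counts also inside a gene, as for the Pcdh9 cluster, with 446465 bp and all members inside. In 125 clusters a member lay inside a gene. No cluster contained a promoter ACS within its span, as follows from the definition of distal. Chromosome 19 stood out, with 32 clusters that held 572 of its 1973 distal ACS (29.0%), while the clusters on chromosome 3 held 2.85% of the distal ACS there.

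Sequences are shown for the promoters of 3 genes whose clusters differed in how they moved and which also had a promoter ACS. Whether the printed bases overlap that ACS was not checked, since the 2 are located on different builds. Tiam1 and Glg1 lie near clusters that were more accessible in adults, and Scg2, which encodes the granule protein secretogranin II, lies near a cluster whose members went both ways. Each line gives 250 bases before to 50 bases after the gene start, 5′ to 3′, from RefSeq on the GRCr8 build, at chr11:42646033-42646332 (minus strand) for Tiam1, chr19:56133473-56133772 (minus strand) for Glg1 and chr9:88256817-88257116 (minus strand) for Scg2. The capitals mark a match to the cAMP response element TGACGTCA, the AP-1 motif TGACTCA or the forkhead motif TGTTTAC, each searched on both strands.
Tiam1: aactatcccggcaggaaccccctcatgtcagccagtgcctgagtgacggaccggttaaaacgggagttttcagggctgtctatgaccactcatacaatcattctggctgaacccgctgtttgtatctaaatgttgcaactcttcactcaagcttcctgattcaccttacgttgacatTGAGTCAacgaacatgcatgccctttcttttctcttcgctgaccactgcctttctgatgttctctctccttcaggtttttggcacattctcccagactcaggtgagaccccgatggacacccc
Glg1: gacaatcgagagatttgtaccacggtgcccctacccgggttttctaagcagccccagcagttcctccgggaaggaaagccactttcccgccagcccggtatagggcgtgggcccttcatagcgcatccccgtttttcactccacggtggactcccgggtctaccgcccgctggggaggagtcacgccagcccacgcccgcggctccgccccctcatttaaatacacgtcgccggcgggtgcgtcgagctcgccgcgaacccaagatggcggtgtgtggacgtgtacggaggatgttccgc
Scg2: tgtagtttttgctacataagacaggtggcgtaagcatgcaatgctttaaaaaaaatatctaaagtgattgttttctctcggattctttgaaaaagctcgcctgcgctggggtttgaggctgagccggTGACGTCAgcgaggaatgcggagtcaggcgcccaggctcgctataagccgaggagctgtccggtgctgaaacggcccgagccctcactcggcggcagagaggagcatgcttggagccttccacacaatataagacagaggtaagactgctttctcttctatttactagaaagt
The Tiam1 promoter held an AP-1 match, the Scg2 promoter held a cAMP response element and the Glg1 promoter held none of the 3 motifs. Among 33469 RefSeq promoters of the same length, 1.83% held the cAMP response element, 4.63% the AP-1 motif and 3.78% the forkhead motif. Of the 380 genes that clusters were named for, 262 had a promoter in the table, of which 6, 12 and 12 held these motifs. The members themselves are located on the Rn5 build, as in the deposited table.

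As units, the clusters were more often higher in adults than lower. Integrations were summed over the members of each chain of distal ACS, every other ACS stayed a unit of its own, and the 65445 units were compared between ages with edgeR's quasi-likelihood test and Benjamini-Hochberg adjustment. At the limits of p below 0.05 and FDR below 0.2, 77 of 480 clusters were Up (more accessible in adults), 3 were Down and 400 were not called. The share of Up clusters was 16.0%, against 13.7% of all units, and the share of Down clusters was 0.625%, against 7.74% of all units. These shares were not matched for counts. The median level was 79.0 CPM for a cluster and 4.70 CPM for a single ACS. Of distal ACS outside clusters, 1.48% were Up in the fifth with the lowest counts and 27.7% in the highest, and 6.77 and 5.32% were Down. In 76 clusters (15.8%) every adult library was above every P10 library, against 14.6% of all units, and in 4 every adult library was below, against 11.3% of all units. The log2 fold change of adults over P10 had a median of 0.17 and ran from -0.48 to 0.95, and 366 clusters had a positive value. With the integrations in ACS as library sizes and no TMM scaling, 10.2% of clusters were Up and 2.92% Down. Scaling to the total reads of each library, which put the median of all ACS at -0.84, gave 0% Up and 78.1% Down, and the median over members was then -0.69. The count of Up clusters depended on single libraries. The share of Up clusters fell to 10.4% without Adult 6, to 5.42% without P10 2 and to 9.38% without P10 3. It rose to 18.3% without Adult 4, to 23.75% without Adult 5 and to 24.0% without P10 1. The share of Down clusters was 3.75% without Adult 5 and 1.88% without P10 1.

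With all 6 libraries, single members were called less often than other distal ACS, a difference that was not tested and that turned round for Up members without Adult 4. Tested over all 101603 ACS, 600 of 6032 members were Up (9.95%, against 12.3% of all ACS) and 161 were Down (2.67%, against 6.63% of all ACS). The 74511 distal ACS outside clusters were Up in 14.1% and Down in 6.76%. The ages did not overlap in 601 members with adults higher (9.96%, against 13.8% of all ACS) and in 290 with adults lower (4.81%, against 10.9% of all ACS). The median log2 fold change was 0.13 over members, 0.01 over other distal ACS and -0.01 over all ACS. Up members were spread over 276 clusters and Down members over 129, with medians of 0.80 and -0.89, and 153 clusters had no called member. Members had more integrations than other distal ACS, with median counts of 80.2 and 54.3. Without TMM scaling 7.61% of members were Up and 4.44% Down, and with total reads as library sizes 0.398% and 50.2%. Without Adult 4, 14.8% of members and 10.6% of other distal ACS were Up, and the median over members was 0.25. Without Adult 5 that median was 0.00313, and without P10 1 it was 0.0758. Without P10 2 the share of Up members was 5.90%, and the share of Down members was 4.41% without Adult 5, 1.26% without P10 2 and 1.69% without P10 3.

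The clusters were split by the spacing of their members, and whether the 2 parts are separate kinds was not tested. In 158 clusters the median gap between neighbours was under 2000 bp (tight), and in 322 it was larger (spaced), a limit chosen after the gaps had been seen. Tight clusters lay farther from genes, with 5.58% of their 2508 members inside a gene, against 25.9% of the 3524 spaced members and 21.6% of other distal ACS. The nearest gene was a vomeronasal receptor, which senses pheromones in the nose, for 4.94% of tight members, 1.73% of spaced members and 0.387% of other distal ACS. Of these 124 tight members 58 belonged to the cluster near Vom2r9, without which the share was 2.69%. An uncharacterised locus was the nearest gene for 15.5%, 10.5% and 5.47% of them. Of the 100 ACS with the highest level in the whole table, 49 were members, 33 of them in tight clusters. No test of these shares was made.

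With all 6 libraries, changes with age were found mainly in the spaced clusters, an order that turned round without Adult 4. Of these, 68 of 322 were Up (21.1%), and of the tight clusters 9 of 158 were Up (5.70%), and the 3 Down clusters were spaced. Among clusters of at least 12 members, 13 of 83 spaced and 2 of 66 tight clusters were Up. Of the members, 13.7% of the spaced and 4.70% of the tight were Up, and 3.92% and 0.917% were Down. The order was the same among the fifth of ACS with the highest counts, where 21.2% of spaced members, 9.59% of tight members and 27.7% of other distal ACS were Up. The difference between tight and spaced clusters was not tested. Without Adult 4, 22.8% of tight and 16.1% of spaced clusters were Up, and 18.2% of tight and 12.4% of spaced members. The share of tight clusters that were Up was 8.86% without Adult 5, 3.797% without Adult 6 and 1.27% without P10 2, and the share of spaced clusters was 13.7% without Adult 6, 33.2% without P10 1, 7.45% without P10 2 and 10.9% without P10 3. The share of Up members in tight clusters was 2.67% without Adult 5, 2.43% without P10 1 and 2.15% without P10 2, and in spaced clusters 8.57% without P10 2. The share of Down members in tight clusters was 0.598% without Adult 4, 3.23% without Adult 5, 0.319% without P10 2 and 0.478% without P10 3, and in spaced clusters 1.93% without P10 2 and 2.55% without P10 3. With a limit of 1000 bp, 2.90% of tight clusters were Up.

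**Figure D1:**
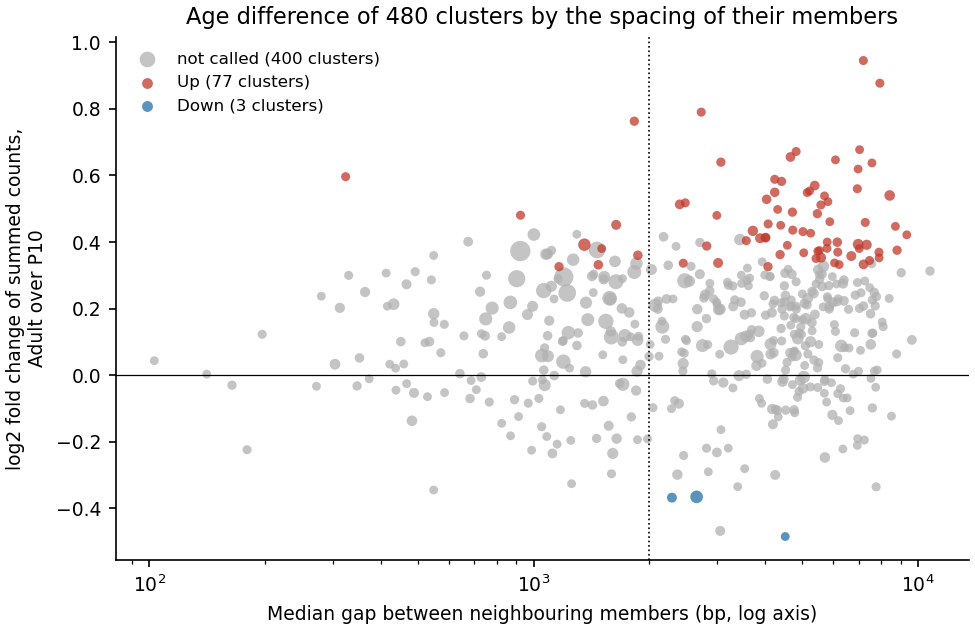
Each point is a cluster, placed by the median gap between its members (bp, log axis) and by the log2 fold change of its summed counts, adults over P10, with a larger point for more members and a dotted line at 2000 bp. Of the 77 Up clusters 68 lie to the right of the line, and the 3 Down clusters do too, while without Adult 4 the share of Up clusters was higher on the left (22.8%) than on the right (16.1%).

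**Figure D2:**
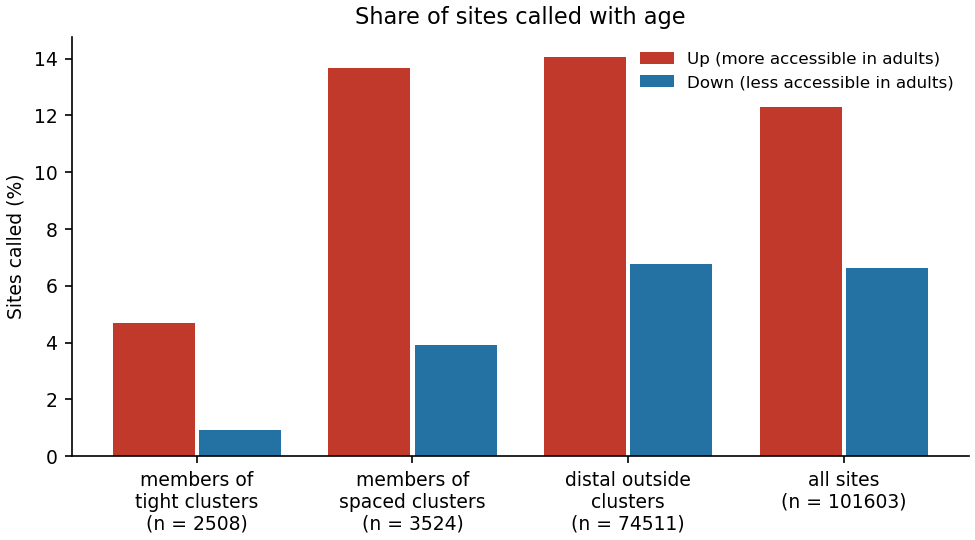
Bars give the percent of ACS called Up or Down in members of tight clusters, members of spaced clusters, distal ACS outside clusters and all ACS, with the number of ACS under each pair. Members of tight clusters have the lowest shares, 4.70% Up and 0.917% Down, with all 6 libraries; without Adult 4, 18.2% of them were Up.

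Tight clusters also varied more between libraries than spaced clusters did. Members took 7.88, 11.2 and 9.63% of the integrations in the adult libraries and 8.37, 9.26 and 9.61% in the P10 libraries, with 95% Wilson intervals of 7.86 to 7.90% for the lowest and 11.17 to 11.21% for the highest, which cover counting error only. The means were 9.57 ± 1.66% (SD, n = 3) and 9.08 ± 0.64% (SD, n = 3), and the ages overlapped (difference 0.49 percentage points, exact permutation test, two-sided p = 0.7, where 0.1 is the smallest p that 3 against 3 libraries allow). Without Adult 5 the difference was -0.32. Tight clusters took 3.88, 6.42 and 5.27% in adults and 4.36, 5.07 and 5.34% in pups, a 1.66-fold range, and spaced clusters took 4.004, 4.78 and 4.36% and 4.01, 4.18 and 4.27%, a 1.19-fold range. By CPM of single clusters, Adult 5 was the highest adult library in 119 of 158 tight clusters (75.3%), Adult 4 was the lowest in 124 (78.5%), and P10 1 was the lowest P10 library in 111 (70.3%). In spaced clusters Adult 4 was the highest adult library in 168 of 322 (52.2%) and P10 1 the highest P10 library in 182 (56.5%). Counted cluster by cluster, Adult 4 and P10 1 thus stood mostly low in tight clusters and more often high than low in spaced clusters. In spaced clusters Adult 4 was also the lowest adult library in 91 (28.3%) and P10 1 the lowest P10 library in 104 (32.3%). By the summed share of integrations both were the lowest of their age in tight and in spaced clusters. The part of the libraries in the age differences was not tested.

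**Figure D3:**
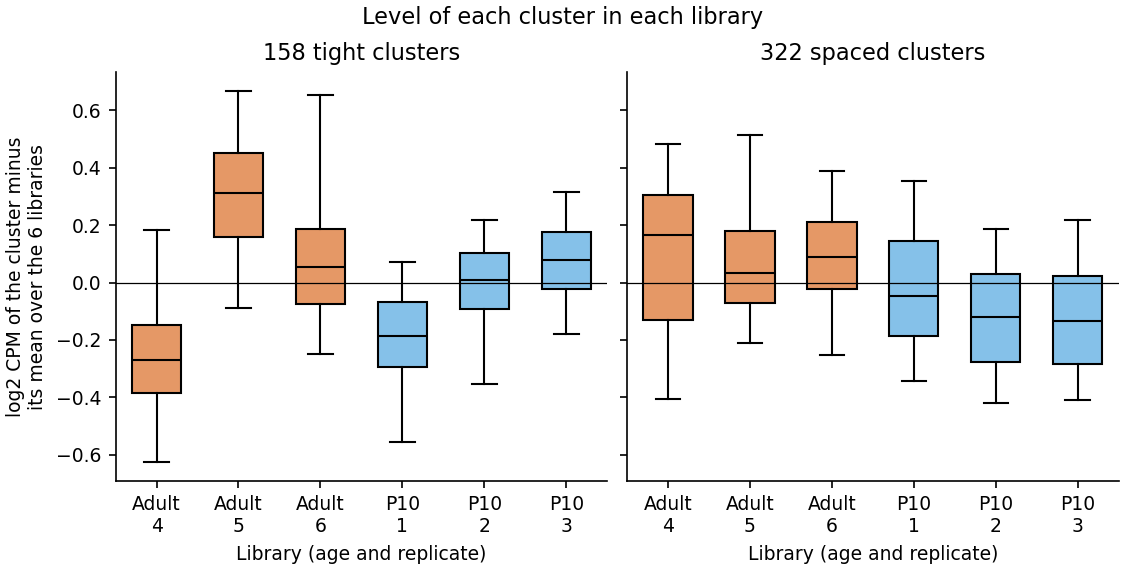
Boxes show, for tight and for spaced clusters, the log2 CPM of each cluster in each library minus its mean over the 6 libraries (line, median; box, quartiles; whiskers, 5th to 95th percentile; adults orange, P10 blue). In tight clusters the adult medians run from -0.27 (Adult 4) to 0.31 (Adult 5), and in spaced clusters all adult medians, 0.03 to 0.17, lie above the P10 medians, -0.14 to -0.05.

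The largest clusters were tight and none was called. The cluster nearest to Zfp868, a zinc finger gene, held 85 members over chr16:21635446-21867637, had 999, 1821 and 1631 CPM in adults and 1019, 1230 and 1188 CPM in pups, and changed by 0.37 ± 0.20 (log2, SE, edgeR adjusted p = 0.27). Adult 5 and Adult 6 were above all P10 libraries and Adult 4 was below them, and 78 of the 85 members had a positive log2 fold change, of which 11 were Up. The cluster nearest to the vomeronasal receptor gene Vom2r9 held 58 members over chr1:56843600-56978780, and all 58 had a positive log2 fold change, between 0.02 and 0.53. Its summed level was 2049, 4200 and 2672 CPM in adults and 2213, 2684 and 2400 CPM in pups, so that Adult 5 stood far above the rest and the ages overlapped (0.29 ± 0.22, edgeR adjusted p = 0.47). The other large clusters, nearest to Dazl (75 members, 66 positive), Man2b1 (62 members, 51 positive) and Lzts1 (54 members, 53 positive), changed by 0.29, 0.25 and 0.38 with edgeR adjusted p-values of 0.46, 0.53 and 0.26. The highest level, picked after its values were seen, belonged to the cluster nearest to Tsn, which encodes the nucleic acid binding protein translin, with 4411, 6672 and 5399 CPM in adults and 4368, 5670 and 5804 CPM in pups over 23 members at chr13:38609698-38681899. It lay 689507 bp from Tsn and changed by 0.06 ± 0.21 (edgeR adjusted p = 0.92).

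The Up cluster with the smallest p-value lay upstream of Glg1, which encodes a sialoglycoprotein of the Golgi apparatus, at chr19:53698032-53749122. Its 9 members summed to 79.3, 58.3 and 72.1 CPM in adults and 40.9, 34.7 and 38.5 CPM in pups. Every adult library was above every P10 library (0.88 ± 0.16, edgeR adjusted p = 0.000364). Most of this came from the first member, at chr19:53698032-53698516, which had 37.0, 26.0 and 33.9 CPM in adults and 8.97, 6.35 and 8.14 CPM in pups (2.04 ± 0.21, edgeR adjusted p = 4.4e-07). A member 2.65 kb farther on was also Up, the other 7 were not called, and without the strongest member the cluster changed by 0.31 (edgeR adjusted p = 0.25). The promoter ACS of Glg1 was not called (-0.07 ± 0.21, edgeR adjusted p = 0.90).

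In the clusters named for Lemd3, Gab1 and Tiam1 several members rose. Lemd3 encodes an inner nuclear membrane protein that restrains TGF-β signalling, and its cluster at chr7:62667850-62693726 lay 285340 bp from the gene. The cluster summed to 74.2, 52.1 and 68.8 CPM in adults and 43.6, 33.3 and 35.8 CPM in pups, with no overlap (0.79 ± 0.16, edgeR adjusted p = 0.0017). Of its 9 members 6 were Up and 8 had a positive value, and without the strongest member the change was 0.85. Gab1 encodes a docking protein of receptor tyrosine kinases, and its cluster at chr19:41713796-41782945 had 12 members, of which 83.3% lay inside the gene. It summed to 109, 85.2 and 92.3 CPM in adults and 67.3, 61.3 and 53.5 CPM in pups, again with no overlap (0.66 ± 0.15, edgeR adjusted p = 0.0052), and 6 members were Up. Tiam1 encodes an exchange factor that activates the small GTPase Rac1, and all 9 members of its cluster at chr11:33585820-33628276 lay inside the gene.

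The Tiam1 cluster summed to 176, 127 and 160 CPM in adults and 112, 88.4 and 89.8 CPM in pups, and the lowest adult library was above the highest P10 library (0.67 ± 0.16, edgeR adjusted p = 0.0058). Of its members 4 were Up, the largest change being at chr11:33604272-33604907, with 36.1, 29.6 and 29.5 CPM in adults and 15.9, 10.3 and 12.7 CPM in pups (1.29 ± 0.20, edgeR adjusted p = 8.1e-05). The Tiam1 promoter ACS at chr11:33682844-33683248 was Up too, with 6.78, 5.36 and 11.2 CPM in adults and 5.48, 5.14 and 4.33 CPM in pups. Adult 4 and Adult 6 were above the pups there and Adult 5 was within them (0.63 ± 0.28, edgeR adjusted p = 0.19), and the call was lost without Adult 4 (0.71), Adult 6 (0.28), P10 2 (0.63) or P10 3 (0.52).

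The remaining Up clusters of the 6 with the smallest p-values were named for Chd1 and Dad1. The Chd1 cluster, named for a chromatin remodeller 570249 bp away, was the only tight one among them and summed to 37.0, 33.7 and 47.8 CPM in adults and 19.99, 24.7 and 25.1 CPM in pups (0.76 ± 0.17, edgeR adjusted p = 0.0037). Of its 10 members 2 were Up, and without the strongest, at chr1:59265479-59266184 (1.21 ± 0.24), the change was 0.42 with an adjusted p of 0.20. Dad1 encodes a subunit of the oligosaccharyltransferase that adds sugars to new proteins, and its cluster at chr15:36507408-36559040 lay 120048 bp from the gene. The cluster summed to 106, 92.7 and 92.4 CPM in adults and 65.1, 60.8 and 61.4 CPM in pups (0.64 ± 0.15, edgeR adjusted p = 0.0044). Of its 8 members 3 were Up, by up to 1.56 ± 0.30 at chr15:36543612-36543887, where the levels were 9.85, 6.91 and 5.54 CPM in adults and 2.37, 2.28 and 2.91 CPM in pups. Adults were above pups in every library of both clusters.

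In the 77 Up clusters as a group, some of the members rather than all were called Up. They held 764 members, of which 226 were Up (29.6%) and 22 were Down. Since a cluster was called on the sum of these same counts, this share is a description. In 66 of them at least 2 members were Up, in 2 most members were Up, and in 6 every member had a positive value. The median share of members with a positive value was 75%. In 61 of the 77 clusters the members differed in their change by the edgeR test of unequal change. A single member has fewer counts than the sum, so a member not called is not shown to be unchanged. Their log2 fold changes ran from 0.33 to 0.95 with a median of 0.43. In 69 of the 80 called clusters the summed change and the median change of members had the same sign. Leaving out the strongest member of every cluster gave 79 Up and 4 Down clusters, which were not all the same clusters. The clusters near Glg1, Chd1, Bach2 and Igf1r lost the Up call, and those near Lemd3, Gab1, Dad1, Efna5 and Irs2 kept it. The clusters near Ctdspl and at chr12:134742-187743 lost the Down call.

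Of the 3 Down clusters, the one near Spen, which encodes a transcriptional repressor, was the only one without overlap of the ages. Its 8 members at chr5:163804458-163840905 summed to 67.0, 60.6 and 52.7 CPM in adults and 88.5, 82.0 and 82.0 CPM in pups (-0.48 ± 0.15, edgeR adjusted p = 0.036), and it stayed Down without any 1 library (-0.57 to -0.40). Of its members 3 were Down, among them the strongest and a site at chr5:163840685-163840905 with 0.994, 0.779 and 1.42 CPM in adults and 2.65, 2.64 and 2.27 CPM in pups (-1.26 ± 0.40, edgeR adjusted p = 0.044). The other 2, named because so few clusters were Down, overlapped between the ages. The cluster upstream of Ctdspl, a phosphatase gene, had 27 members at chr8:126157917-126256070 and summed to 240, 342 and 302 CPM in adults and 312, 425 and 402 CPM in pups (-0.37 ± 0.17, edgeR adjusted p = 0.19). Its strongest member, at chr8:126195807-126196929, had 60.4, 72.9 and 69.7 CPM in adults and 112, 157 and 141 CPM in pups, with no overlap (-1.02 ± 0.15, edgeR adjusted p = 7.1e-05), whereas 19 of the 27 members had a positive value and the cluster without that member changed by -0.10. It was not called without Adult 4 (-0.24), Adult 6 (-0.38), P10 2 (-0.29) or P10 3 (-0.33). The cluster at chr12:134742-187743 (13 members, -0.37 ± 0.17, edgeR adjusted p = 0.19) changed by -0.06 without its strongest member and was not called without Adult 4 (-0.20), Adult 6 (-0.42), P10 2 (-0.23) or P10 3 (-0.40).

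**Figure D4:**
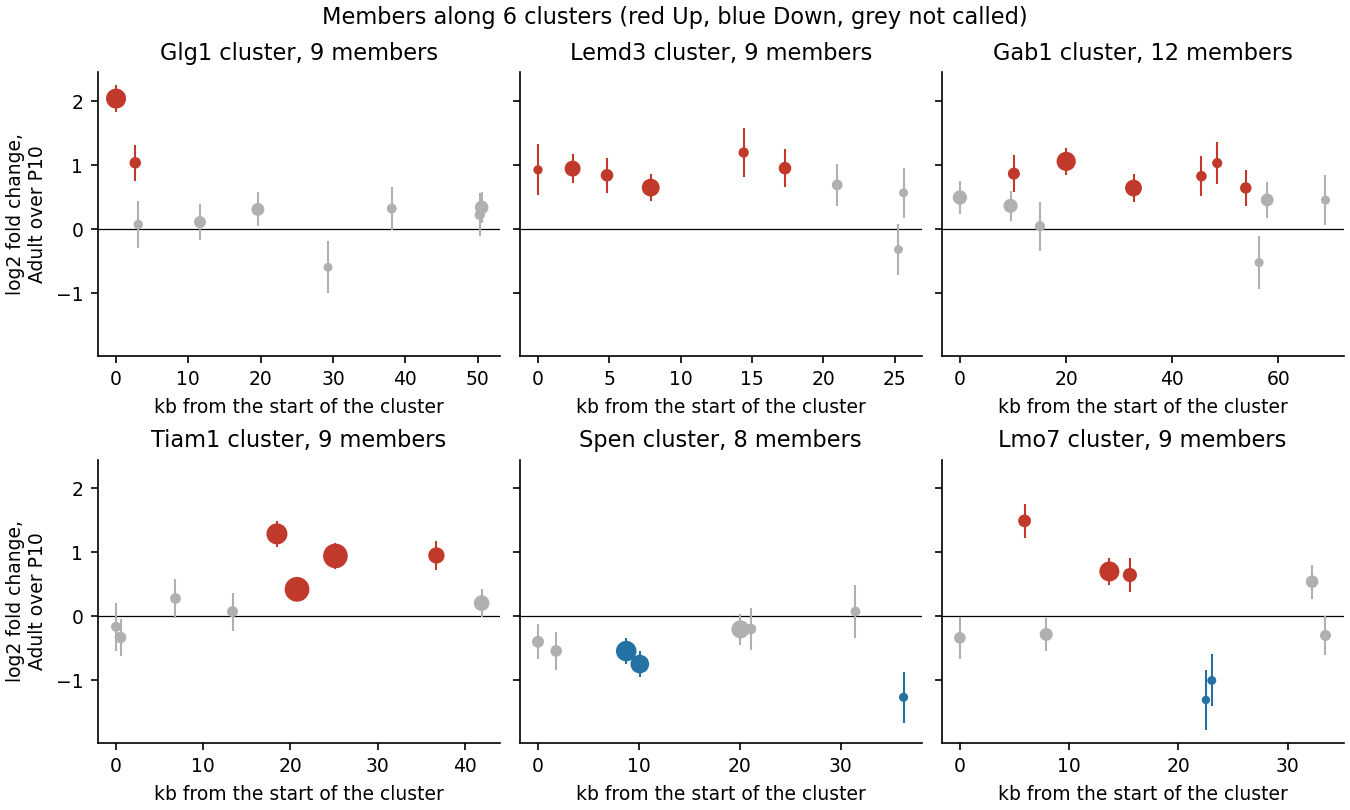
Points are the members of 6 clusters, placed by distance from the start of the cluster (kb) and by log2 fold change, adults over P10, with bars of 1 SE and a larger point for a higher mean CPM (red Up, blue Down, grey not called). In the Glg1 cluster the first member reaches 2.04 and 7 of 9 are not called, in the Lemd3 and Gab1 clusters 6 members each are Up, and in the Lmo7 cluster 3 are Up and 2 are Down.

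Some clusters were named for genes of islet function, and of those only the Bach2 cluster, 133355 bp from the gene, was Up. Of 62 islet transcription factor genes 7 had a cluster nearest to them (Bach2, Pax6, Rfx3, Rfx6, St18, Thrb and Zbtb20), with 8 clusters and 69 members, of which 8 were Up (11.6%, against 12.3% of all ACS) and 2 Down (2.90%, against 6.63%), and a median log2 fold change of -0.02 against -0.01 over all ACS. Of 54 genes of insulin secretion and glucose sensing 3 had a cluster (Cacna1c, Ptprn2 and Scg2), with 25 members, of which 5 were Up (20%) and 1 Down (4%), with a median of 0.17. The genes of the circadian clock and the islet endocrine, acinar, duct, endothelial, mesenchymal and immune markers had none. No share over all genes was set beside these counts of genes with a cluster. They do not show whether the listed genes had clusters more or less often than others. Bach2, a transcriptional repressor of the leucine zipper class, had a cluster of 8 members at chr5:51980952-52018115 that summed to 111, 92.5 and 100 CPM in adults and 81.8, 70.3 and 70.2 CPM in pups (0.45 ± 0.15, edgeR adjusted p = 0.051). Its ages did not overlap, but 3 of 8 members had a positive value, and the change came from the strongest member, at chr5:51987461-51987979, with 47.2, 35.3 and 40.6 CPM in adults and 23.6, 15.0 and 18.0 CPM in pups (1.11 ± 0.19, edgeR adjusted p = 0.00024). Without that member the cluster changed by 0.13 (edgeR adjusted p = 0.68), and it was not called without P10 2 or without P10 3 (0.40 in each).

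Other clusters near islet genes were not called as units, though most of them held a called member. Pax6, a transcription factor of endocrine cells, had a cluster of 10 members at chr3:102338841-102403044 with 79.3, 66.1 and 64.5 CPM in adults and 86.3, 56.6 and 63.6 CPM in pups (0.02 ± 0.16, edgeR adjusted p = 0.96), of which 1 member was Up and 1 Down. Thrb, a thyroid hormone receptor, had 11 members inside the gene, which summed to 59.9, 52.5 and 49.1 CPM in adults and 46.8, 43.4 and 40.5 CPM in pups and did not overlap, yet the change of 0.31 ± 0.15 was not called (edgeR adjusted p = 0.23). Its member at chr15:13273786-13274190 was Up, with 7.59, 6.23 and 6.32 CPM in adults and 2.84, 2.85 and 2.54 CPM in pups (1.29 ± 0.28, edgeR adjusted p = 0.0032). Ptprn2 encodes phogrin, a membrane protein of insulin granules, and its cluster changed by 0.22 ± 0.17 (edgeR adjusted p = 0.50) with 2 Up members, 1 of them at chr6:153421894-153422226 (1.05 ± 0.24, edgeR adjusted p = 0.0053). In the Scg2 cluster, at chr9:84938755-84982421, 2 members were Up and 1 was Down, and the sum changed by 0.18 ± 0.16 (edgeR adjusted p = 0.56). The Down member, at chr9:84963734-84963956, had 5.78, 3.12 and 3.48 CPM in adults and 8.97, 6.49 and 7.88 CPM in pups (-0.91 ± 0.28, edgeR adjusted p = 0.043), and the promoter ACS of Scg2 was not called (0.10 ± 0.23). The clusters near Cacna1c, a calcium channel subunit gene (0.23), and near the transcription factor genes St18 (0.28), Rfx3 (-0.12), Rfx6 (0.11) and Zbtb20 (0.17) were not called, those near Rfx3 and Rfx6 without a called member, with edgeR adjusted p-values between 0.42 and 0.75.

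Among genes of growth and of neural adhesion, 4 clusters were Up, named after their values were seen. Of 44 growth and cell cycle genes 3 had a cluster (Igf1r, Irs2 and Tead1), with 34 members, of which 6 were Up (17.6%, against 12.3% of all ACS) and 2 Down (5.88%, against 6.63%), with a median of 0.11, and of 78 neural adhesion and axon guidance genes 6 had a cluster, with 67 members, of which 8 were Up (11.9%) and 3 Down (4.48%), with a median of 0.14. The cluster inside Igf1r, the receptor of insulin-like growth factor, summed to 57.2, 50.6 and 43.8 CPM in adults and 34.4, 33.3 and 33.7 CPM in pups (0.58 ± 0.16, edgeR adjusted p = 0.014), with no overlap. Its strongest member, at chr1:130137262-130137783, had 23.7, 15.6 and 14.8 CPM in adults and 5.48, 4.14 and 6.45 CPM in pups (1.75 ± 0.25, edgeR adjusted p = 2.7e-05), another was Down (-1.03 ± 0.43, not called without Adult 5, Adult 6, P10 2 or P10 3, from -1.06 to -0.88), and without the strongest the cluster changed by 0.20 (edgeR adjusted p = 0.53). Efna5, an ephrin ligand of axon guidance, had 9 members inside the gene that summed to 216, 169 and 198 CPM in adults and 145, 131 and 121 CPM in pups, with no overlap (0.56 ± 0.15, edgeR adjusted p = 0.017). The clusters near Pcdh9, a protocadherin gene (0.43 ± 0.16, edgeR adjusted p = 0.089), and Irs2, an adaptor of the insulin receptor (0.36 ± 0.17, edgeR adjusted p = 0.19), were Up less firmly. The Pcdh9 call was lost without Adult 4 (0.37), Adult 6 (0.32) or P10 2 (0.37), and the Irs2 call without any library but P10 1 (0.23 to 0.40).

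Members of a cluster often changed unequally. In 175 of 480 clusters (36.5%) the members differed in their change with age, by the edgeR test of unequal change within a chain with Benjamini-Hochberg adjustment, against 26.4% of the 17583 chains of at least 2 distal ACS, which have fewer members to differ. This was so in 166 of 322 spaced clusters (51.6%) and 9 of 158 tight ones (5.70%, 3.16% without P10 2 or without P10 3, and 17.6% with a limit of 4000 bp). With at least 12 members it was so in 35 of 83 spaced and 0 of 66 tight clusters. In large tight clusters the p-value of this edgeR test lay near its ceiling, as for Man2b1 (0.99996) and Tsn (0.999). Its spread includes library deviations that members share, so a tight cluster not called is not shown to have members that change equally. Limma's version of the test gave 172 clusters. Up and Down members stood together in 78 clusters, of which 75 were spaced, while 198 clusters held Up members alone and 51 Down members alone. These counts were not set against shorter chains or against the shares of called members, and they are a description. All members had a positive value in 20 clusters and a negative value in 3.

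Clusters with many opposite members lay near Clvs1, Lmo7 and LOC100911367. Inside Lmo7, a gene for a LIM domain protein of cell junctions, the 9 members at chr15:87841519-87875442 included 3 Up and 2 Down. Their extremes were chr15:87847435-87847682 (1.49 ± 0.26, edgeR adjusted p = 0.00039) and chr15:87864026-87864259 (-1.31 ± 0.47, edgeR adjusted p = 0.083, at most 1.53 CPM in any library), the latter not called without Adult 4 (-1.02) or P10 2 (-1.31). The Lmo7 sum was Up (0.40 ± 0.16, edgeR adjusted p = 0.10) but not without Adult 4 (0.35), Adult 6 (0.32), P10 1 (0.34) or P10 2 (0.40). The clusters near Clvs1 (4 Up and 2 Down of 13) and LOC100911367 (3 Up and 2 Down of 13) changed by 0.30 and 0.19 and were not called.

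By Pearson correlation over all clusters, neighbouring members were no more alike in their change than neighbours in short chains. By Spearman correlation, and in tight clusters, they were more alike, a difference that was not tested. The log2 fold changes of adjacent members had a Pearson correlation of 0.14 and a Spearman correlation of 0.17 over 5552 pairs. Those of adjacent ACS in chains of 2 to 7 had 0.14 and 0.14 over 30606 pairs. In tight clusters the Pearson and Spearman values were 0.19 and 0.26, and in spaced clusters 0.12 and 0.13. In all clusters and in short chains the Pearson correlation was highest for the closest pairs, 0.30 and 0.27 at gaps up to 500 bp. At gaps of 4000 to 8000 bp it was 0.06 in clusters and 0.11 in short chains. The intraclass correlation of the log2 fold changes, with the chain as the class, was 0.11 over 6032 members, 0.19 in tight and 0.08 in spaced clusters and 0.13 in short chains, and without Adult 5 it was 0.17 over all members. Of the adjacent members 63.2% lay on the same side of the median change of all ACS, against 54.6% of pairs in short chains. The share was 68.9% in tight and 59.1% in spaced clusters. A positive value was found in 65.9% of members and 51.3% of ACS in short chains, and the part of this offset in the shares was not tested. Where both neighbours were called, 123 of 160 pairs (76.9%) went the same way, and 74.5% of 1599 pairs in short chains did. Members shared the libraries as well as the age. Their deviations within an age had an intraclass correlation of 0.23 to 0.49 in the 6 libraries, and 0.08 to 0.37 in short chains. These are descriptions over sites that share libraries and depth, and how far the shared library deviations make up the likeness of members was not tested.

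**Figure D5:**
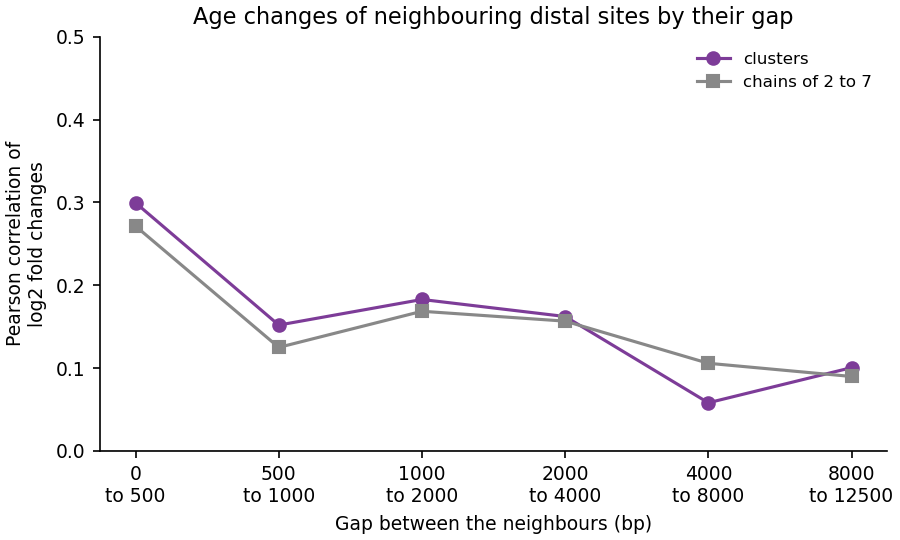
Points give the Pearson correlation of the log2 fold changes of neighbouring distal ACS, by the gap between them (bp), for clusters and for chains of 2 to 7. Both lines start highest, at 0.30 and 0.27, and at gaps of 4000 to 8000 bp the cluster value, 0.06, lies below that of short chains, 0.11.

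The promoters of the nearest genes were mostly not called. A promoter ACS was found for 290 clusters (229 genes), of which 12 clusters (4.14%) had an Up and 17 (5.86%) a Down promoter, against 2.73% Up and 7.87% Down among all 11055 promoter ACS. Of the 54 Up clusters with a promoter ACS, 6 (11.1%) had an Up and 1 (1.85%) had a Down promoter, a share not tested. Across the 290 clusters the log2 fold changes of cluster and promoter had a Pearson correlation of 0.23 and a Spearman correlation of 0.30, a description over pairs that share the same 6 libraries and, in part, the same gene. The promoter ACS of Lemd3 (0.24 ± 0.18), Dad1 (-0.03 ± 0.17) and Gab1 (-0.22 ± 0.17) were not called, whereas their clusters were Up.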

How the data were processed

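ATAC-seq libraries of dissociated islet cells from 3 adult rats and 3 litters of P10 pups were analysed. According to the methods and the labels, reads of 100 bp were aligned to Rn5 with BWA 0.7.13, reads that mapped poorly or to the mitochondrion were discarded, SAMtools 1.3 being used, and MACS2 2.1.1 called peaks on the concatenated libraries of each age. The joined peaks are the ACS. The authors deposited raw counts, for each ACS and each library, of the Tn5 integrations that pyDNase found; whether PCR duplicates had been removed is not given in the sources used here. The deposited log2 fold changes, average abundances, F values, p-values and FDR of the authors' own comparison were not used.

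The table had 101941 entries, of which 338 repeated an ACS, and each of the 101603 distinct ACS was used once. Gene symbols of members came from the table for 5428, from RefSeq by gene ID for 592, and 12 kept the ID. Clusters were named by the nearest gene of most members.

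Counts were tested with edgeR 4.0.16 in R 4.3.3 (TMM factors 0.93 to 1.04, glmQLFit and glmQLFTest, age as the only term, Benjamini-Hochberg adjustment), over all ACS, over all units (chains of distal ACS summed, other ACS single), and for unequal members with diffSpliceDGE over chains of at least 2. A call needed p below 0.05 with FDR below 0.2. SEs are those implied by the fold change and its F value. Shares of integrations were set against age with an exact permutation test over the 10 ways to part them. Pairs of libraries within an age were farther apart than counting alone gives (chi-square per degree of freedom 3.35 to 7.81). The scripts were tested on simulated counts, where the edgeR test of unequal members made more false calls than its FDR limit allows and the version of limma 3.58.1 kept to it. DESeq2 1.42.0, limma voom, other scalings, filters, chaining limits, autosomes alone and leaving out each library or the strongest member were the alternatives. Figures and summaries used pandas 2.3.3, scipy 1.17.1 and matplotlib 3.10.9 in Python 3.11.15.

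Named are the 5 clusters with most members, the 6 Up and 6 Down clusters with the smallest p-values among those without overlap, up to 10 of the highest clusters near islet transcription factor or secretion genes, and the 4 with most called members of both directions; in a named cluster, the strongest member and the called extremes. A cluster among these is not reported here. Others are marked where they were picked after their values were seen. The members, lists and rules were chosen with earlier results of these data known. Member sequences were not analysed here, since a genome of the Rn5 build was not at hand.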

Additional observations from a re-analysis of the deposited data

How the results depend on the processing

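Most values kept their direction and their side of the limits. The summary values that moved, and the values that changed sign, are given here. Members Up were 9.95% and came to 0.398% with total reads as library sizes, 5.06% at an FDR under 0.05, 5.43% with a chaining distance of 5000 bp and 5.90 to 14.8% without 1 library. Members Down were 2.67% and came to 4.44% with column sums, 50.2% with total reads, 0.680% at the stricter FDR, 0.890 and 4.72% with chaining distances of 5000 and 25000 bp, 1.52% with at least 12 members and 1.26 to 4.41% without 1 library. Clusters Up were 16.0% and came to 10.2% with column sums, 0% with total reads, 6.04% at the stricter FDR, 25.2% with 25000 bp, 10.1% with at least 12 members and 5.42 to 24.0% without 1 library. Clusters Down were 0.625% and came to 2.92% with column sums, 78.1% with total reads, 1.04% with limma voom, 0.208% at the stricter FDR, 0 and 1.87% with 5000 and 25000 bp, 1.54 and 1.34% with at least 6 and 12 members and 0.417 to 3.75% without 1 library. Unequal clusters were 36.5% and came to 5.66 and 59.0% with 5000 and 25000 bp, 23.5% with at least 12 members and 25 to 37.7% without 1 library. The share difference of 0.49 points ran from -0.32 (without Adult 5) to 1.34. The intraclass correlation of 0.11 came to 0.21 and 0.0839 with 5000 and 25000 bp, 0.14 with at least 12 members and 0.129 to 0.171 without 1 library, and neighbours on the same side, 63.2%, to 73.6 and 57.3%, 59.2 and 68.1% with at least 6 and 12 members and 58.7 to 68.8% without 1 library. The median of members was 0.13, -0.69 with total reads and 0.00313 to 0.25 without 1 library.

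Total reads as library sizes shifted the median of all ACS to -0.84 and turned negative the clusters near Bach2 (-0.40), Chd1 (-0.0663), Dad1 (-0.20), Efna5 (-0.29), Gab1 (-0.20), Igf1r (-0.25), Irs2 (-0.52), Lemd3 (-0.0733), Lmo7 (-0.43), Pcdh9 (-0.42) and Tiam1 (-0.19), the Tiam1 promoter ACS (-0.24), the largest Up members near Efna5 (-0.0360) and Scg2 (-0.0731) and an Up member near Ctdspl (-0.00279). Each of these values lay above that shift. Integrations in ACS per 100 total reads were 2.48 to 3.05 in adults and 4.05 to 5.77 in pups, so this scaling moves all ACS of an age together. The cluster near Irs2 was not called with column sums (0.27), median-of-ratios factors (0.34) or DESeq2 (0.34), the Tiam1 promoter ACS with column sums (0.53), median-of-ratios factors (0.62), limma voom (0.55) or DESeq2 (0.62), and the cluster at chr12:134742-187743 (-0.38) and the Down member near Igf1r (-1.05) with DESeq2. At the stricter FDR and without the strongest member or 1 library further single calls were lost. The cause of the other differences was not tested. Leaving out Adult 4 also reversed the order of tight and spaced clusters, with 22.8% and 16.1% Up, and of members and other distal ACS, with 14.8% and 10.6% Up. The limits of 1000 and 4000 bp for tight clusters were chosen after seeing the data. No paired analysis was possible because the adult and P10 libraries share no replicate number. With total reads and with median-of-ratios factors the test of unequal members was not run, and DESeq2 was run for the calls and medians alone. Low counts limit the smallest sites, and 6.33% of members had a mean count under 20.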
